A study of Mus musculus with 10 samples.

Results

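Hippocampal gene expression in mice carrying A-CREB was compared with that in wild-type mice across saline and kainate treatment. The comparison used all 10 arrays of the series, chosen by their titles, of which 6 were titled as A-CREB and 4 as wild type. The A-CREB mice were of the TetO-A-CREB-95 strain on C57BL6 F1/J and had received saline, kainate at 14 mg/kg or kainate at 18 mg/kg. The wild-type mice, labelled C57BL6 F1/J where a strain is given, had received saline or kainate at 14 mg/kg. Each of these 5 groups had 2 arrays, numbered replicate 1 and replicate 2, and no wild-type group received 18 mg/kg. All mice were 3 weeks old, each array held hippocampal RNA pooled from 3 to 4 of them, and 20 A-CREB and 14 wild-type mice were used in all. Errors and p-values therefore describe variation among pools of mice. The strain name places A-CREB under a tetracycline operator, which needs a transactivator supplied by a second transgene. The labels name no such driver line, so which cells made A-CREB is not known here.

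CREB is a transcription factor that binds the cAMP response element in the promoters of many activity-dependent genes, and in hippocampal neurons it is switched on by cAMP and calcium signals. A-CREB is a dominant-negative protein that pairs with CREB through its leucine zipper and keeps the pair off DNA. Kainate activates glutamate receptors, provokes seizures and induces a wave of activity-dependent genes. The comparison described here asks which genes differed between the genotypes whatever the treatment.

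Signals are the deposited linear intensities of probe sets, and differences are on the scale log2(signal + 22), A-CREB minus wild type. The pseudocount of 22 lowers the fold of dim genes. Each difference and its standard error (SE) come from a limma fit of genotype, treatment (saline or kainate) and replicate number as additive terms over 10 arrays and 13219 genes. Adjusted p-values are from limma with Benjamini-Hochberg adjustment over those genes, with a threshold of 0.05. A difference was said to hold in every treatment where each of the 6 A-CREB arrays deviated in the fitted direction from the wild-type array of its treatment and replicate number. The 18 mg/kg arrays were set against the wild-type arrays at 14 mg/kg, which therefore enter these differences more often than the saline arrays. The median signal was 94.9 to 106 on arrays numbered 1 and 135 to 152 on arrays numbered 2. With 10 arrays, precision is limited by their number. Summed signals of dentate granule cell markers ran from 31620 to 34220 on wild-type arrays and from 30060 to 34330 on A-CREB arrays. Such sums do not check the labelled tissue, since those of choroid plexus markers ran from 29310 to 53820. Xist, expressed from the inactive X chromosome, had signals of 2989 to 6172 on wild-type and 3886 to 6764 on A-CREB arrays, while no probe set of the Y-linked genes Eif2s3y, Kdm5d and Uty was bright enough to be tested and their highest signal was 84.3.

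The genotypes differed in 6 genes, 3 higher and 3 lower in A-CREB, each direction being 0.0227% of the genes tested. All 6 held in every treatment, and in each of them the A-CREB arrays did not overlap the wild-type arrays. Both describe the called genes on the arrays that gave the calls and are no further test. The genes that rose were Trat1, an adaptor of the T cell receptor complex, Oasl2, an interferon-induced relative of the oligoadenylate synthetases, and Ly86, the secreted partner of an innate immune receptor that microglia express. The genes that fell were Doc2b, a calcium sensor of vesicle release, Stxbp6, a syntaxin-binding protein that restrains vesicle fusion, and Ptprn2, a membrane protein of dense-core vesicles. The log2 difference of all genes had a median of -0.0141, with 46.2% above 0, so the genes as a whole lay close to 0. At an unadjusted p under 0.05 there were 1207 genes, 557 higher and 650 lower in A-CREB.

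Trat1 showed the largest difference of the 6. Its brightest probe set, 1437561_at, had wild-type signals of 75.3 and 236 after saline and 78.4 and 163 after kainate, for replicates 1 and 2 in turn. On the A-CREB arrays the lowest signal was 335, the median 407 and the highest 632. The dimmest A-CREB array was thus brighter than the brightest wild-type array, and the wild-type arrays numbered 2 were brighter than those numbered 1. Trat1 rose 3.10-fold, by 1.63 (SE 0.16, adjusted p = 0.000533 by limma). The matched differences ran from 0.82 to 2.00, and the mean within the arrays numbered 1 was 1.93 against 1.34 within those numbered 2.

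Oasl2 is among the genes that cells switch on after interferon. Its wild-type signals were 317 and 310 after saline and 185 and 339 after kainate. The A-CREB signals ran from 455 through a median of 684 to 889, so every A-CREB array lay above every wild-type array. Oasl2 rose 2.26-fold, by 1.18 (SE 0.18, adjusted p = 0.0172 by limma), with matched differences from 0.50 to 1.94. Ly86, which encodes MD-1, had wild-type signals of 934 and 667 after saline and 808 and 763 after kainate. Its A-CREB signals had a lowest value of 1128, a median of 1263 and a highest value of 1687, again without overlap. Ly86 rose 1.64-fold, by 0.71 (SE 0.11, adjusted p = 0.0160), and the smallest matched difference, 0.28, was that of A-CREB saline replicate 1.

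Doc2b, whose protein binds calcium through its C2 domains and promotes spontaneous transmitter release, had wild-type signals of 1004 and 1308 after saline and 1447 and 1342 after kainate. The A-CREB arrays ran from 546 through a median of 675 to 776, all below the wild-type arrays. Doc2b fell by 0.90 on the log2 scale (SE 0.12, adjusted p = 0.00968), a level 1.86-fold lower. Ptprn2, known as phogrin, had wild-type signals of 3488 and 4852 after saline and 3817 and 4505 after kainate, against 2530, 2670 and 2935 as the lowest, median and highest A-CREB signals. Ptprn2 fell by 0.61 (SE 0.08, adjusted p = 0.00968), with matched differences between -0.78 and -0.42. Stxbp6, also called amisyn, had wild-type signals of 2280 and 2418 after saline and 2662 and 2273 after kainate. Its A-CREB signals were 1470 at the lowest, 1619 at the median and 1719 at the highest, all below every wild-type array. Stxbp6 fell by 0.58 (SE 0.08, adjusted p = 0.00968), and its matched differences lay between -0.65 and -0.43.

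**Figure D1:**
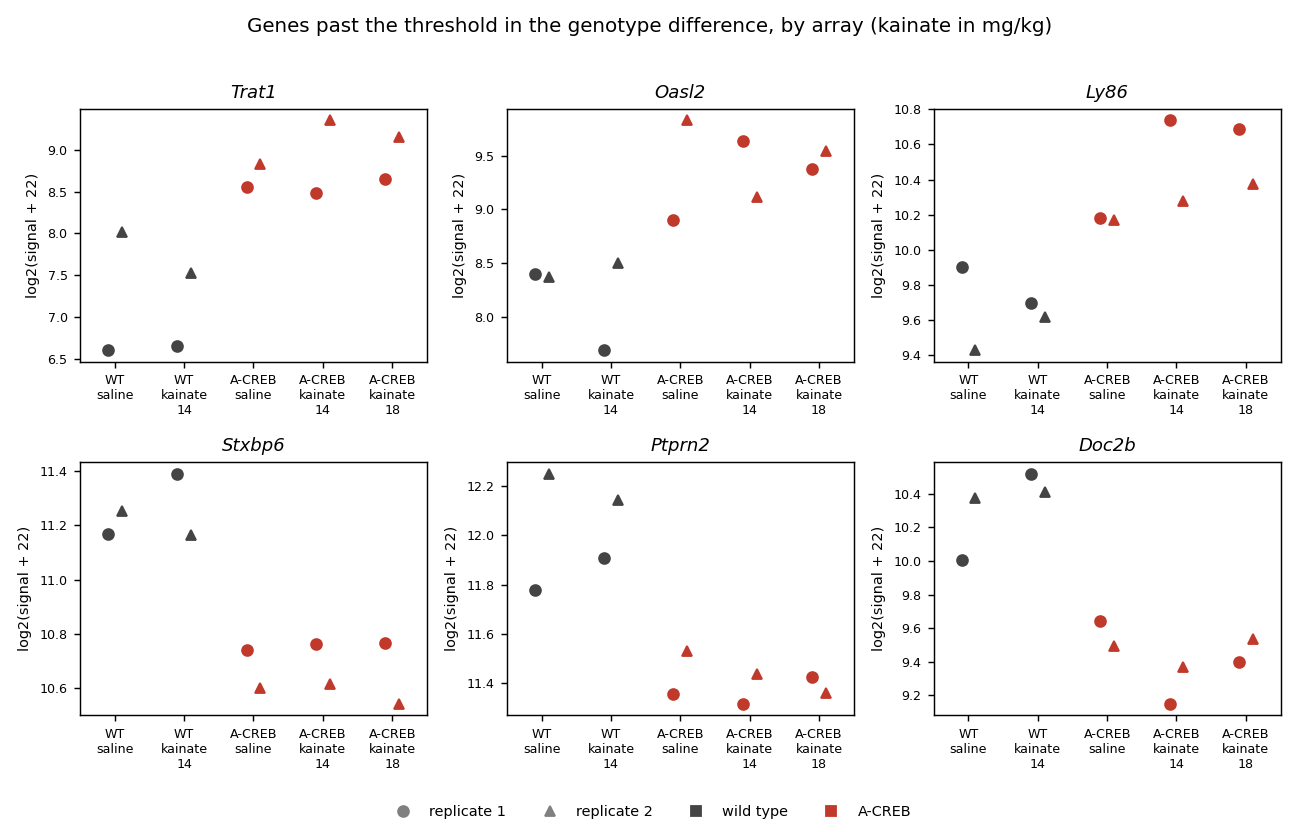
Level of the 6 genes past the threshold on each array, as log2(signal + 22), by group, with kainate doses in mg/kg, circles for replicate 1 and triangles for replicate 2. In each panel the 6 A-CREB arrays (red) lie on one side of the 4 wild-type arrays (grey), Trat1 by 1.63 and Doc2b by -0.90 on average.

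Other probe sets of these genes did not all show the same difference. A second probe set of Trat1, 1427532_at, had signals of 21.97 to 50.74 on wild-type and 311 to 447 on A-CREB arrays. Its difference was 2.90 in a fit of all 23684 tested probe sets one by one (SE 0.16, adjusted p = 1.03e-06 by limma), a size that depends on the pseudocount since the wild-type signals were close to it. Doc2b had a second probe set, 1420666_at, at -0.64, on which A-CREB saline replicate 1, at 795, was brighter than its wild-type match at 628. For Ptprn2 the dimmer probe set 1425724_at stood at 0.08, and for Stxbp6 the dimmer 1425749_at stood at -0.03. These 3 did not pass (adjusted p = 0.430, 0.941 and 0.969). With the mean of all probe sets of a gene, Doc2b was at -0.77, Stxbp6 at -0.30 and Ptprn2 at -0.27, and all 3 lost the call (adjusted p = 0.0960, 0.296 and 0.441). Oasl2 and Ly86 have 1 probe set each, and fitted by probe set Oasl2 missed the threshold (adjusted p = 0.0586).

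**Figure D2:**
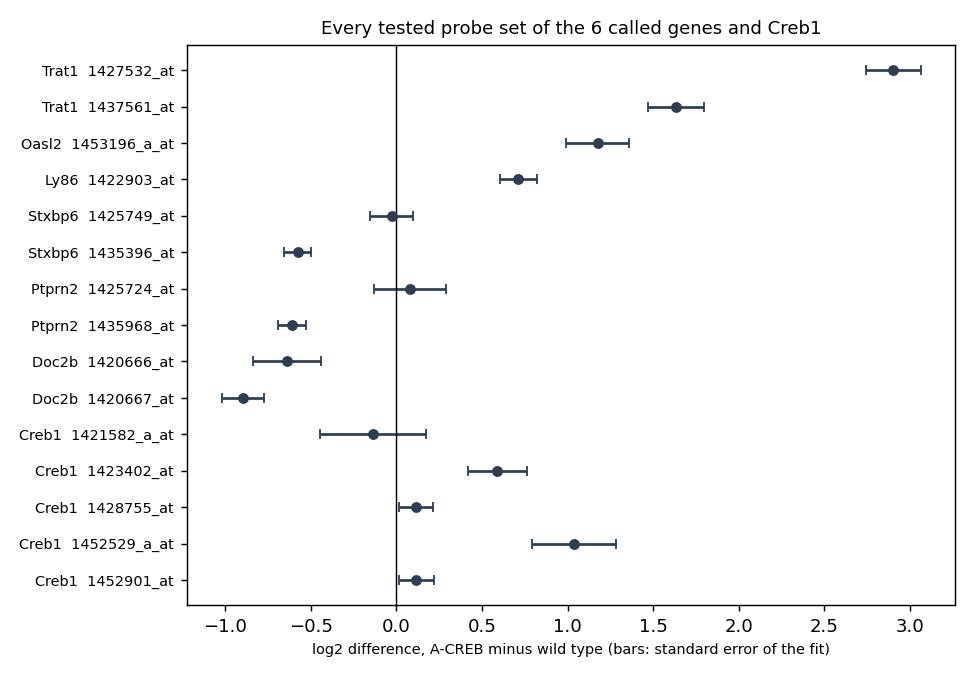
Log2 difference between A-CREB and wild type for every tested probe set of the 6 genes past the threshold and of Creb1, fitted by probe set over all 23684, with bars for the standard error. Both Trat1 probe sets lie above 1.6 while the second probe sets of Stxbp6 and Ptprn2 lie next to 0, at -0.03 and 0.08.

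The calls rested on the replicate number as a term of the fit. Without it limma called 0 genes, the smallest adjusted p being 0.263, and 484 had an unadjusted p under 0.05. Of the 6 genes only Trat1 passed whichever array was left out (1.55 to 1.81). Trat1 was the 1 gene called when wild-type saline replicate 2 or either wild-type kainate array was left out, where the other 5 had adjusted p-values between 0.0672 and 0.0892. Ly86 was also lost when the first A-CREB array at 14 mg/kg was left out (adjusted p = 0.0533). Leaving out A-CREB replicate 2 at 18 mg/kg lost both Ly86 and Oasl2 (0.0521 each), as did leaving out A-CREB replicate 2 after saline (0.0746 and 0.118). Without A-CREB saline replicate 1, in contrast, 58 genes passed, 38 higher and 20 lower, and without wild-type saline replicate 1 there were 18. Both sets held all 6 genes. Within the arrays numbered 1 and those numbered 2 in turn, the mean differences were 1.25 and 1.10 for Oasl2, 0.70 and 0.72 for Ly86, and -0.87 and -0.93 for Doc2b. They were -0.54 and -0.61 for Stxbp6 and -0.49 and -0.73 for Ptprn2.

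Within each treatment the 6 genes kept the direction of their difference. Trat1 was higher by 1.39 after saline, 1.83 at 14 mg/kg and 1.81 for 18 mg/kg against wild type at 14 mg/kg (SE 0.25 each). The differences of Oasl2 were 0.98, 1.28 and 1.37 (SE 0.28 each), and those of Ly86 were 0.51, 0.85 and 0.88 (SE 0.16 each). Stxbp6 stood at -0.54, -0.59 and -0.62 (SE 0.14 each) and Ptprn2 at -0.57, -0.65 and -0.63 (SE 0.14 each). Doc2b was at -0.62 after saline, -1.21 at 14 mg/kg and -1.001 at 18 mg/kg (SE 0.17 each). The 2 kainate values of a gene share their wild-type arrays.

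Whether a difference itself varied with treatment was tested by a genotype by treatment term. No gene passed by limma (0 of 13219). The smallest adjusted p was 0.555, and 586 genes had an unadjusted p under 0.05. For the 6 genes that term was between -0.48 for Doc2b (SE 0.22) and 0.43 for Trat1 (SE 0.32), with an adjusted p of 0.996 or more, so a dependence of that size was not detectable with these arrays. The 3 genes with the smallest p were Zfas1, a noncoding RNA that hosts small nucleolar RNAs, the carbonic anhydrase gene Car7 and the collagen gene Col27a1. Zfas1 differed by 0.99 after saline and -0.23 at 14 mg/kg, Car7 by -0.62 and 0.47, and Col27a1 by -0.64 and 1.13. Leaving out replicate 1 after saline of either genotype gave 1 gene, and leaving out wild-type kainate replicate 1 gave 3.

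Tested treatment by treatment, the genotypes differed in few genes. Within saline 0 passed by limma (741 at an unadjusted p under 0.05, smallest adjusted p 0.516), and 1 passed when replicate 1 of either genotype was left out. At 14 mg/kg 5 genes passed, or 0.0378%. Trat1, the interferon-induced GTPase Iigp1 and the kinetochore gene Pmf1 were higher, and Doc2b and C1ql2 were lower. For A-CREB at 18 mg/kg against wild type at 14 mg/kg, where genotype and dose cannot be told apart, 5 genes passed as well (0.0378%), namely Trat1, Clec7a, C1ql2, the centromere histone Cenpa and the matrix gene Ccdc80, with 3 higher and 2 lower. At 14 mg/kg the count was 0 without either A-CREB array of that dose, 2 without wild-type kainate replicate 2, 18 without wild-type kainate replicate 1, 9 without either A-CREB saline array and 0 without the replicate number in the fit.

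Just beyond the threshold lay 5 genes at an adjusted p of 0.0511, all higher on all 6 A-CREB arrays than on their wild-type matches. They are named here after their values were seen. Clec7a, the fungal receptor dectin-1 of myeloid cells, had wild-type signals of 105 and 108 after saline and 71.0 and 52.2 after kainate, against 125 to 315 on A-CREB arrays (median 275). Its difference was 1.34 (SE 0.24). Cxcl10, an interferon-induced chemokine, had wild-type signals of 154 and 65.9 after saline and 131 and 95.0 after kainate, against 190 to 358 (median 275), a difference of 1.14 (SE 0.20). Neither gene's arrays overlapped between the genotypes. Pmf1 stood at 1.48, lysozyme gene Lyz1 at 1.02 and the zinc finger gene Zfp931 at 0.52, each with overlapping arrays. The value of Pmf1 is from probe set 1438173_x_at and depends on the pseudocount, with wild-type signals of 13.9 to 138. Its other probe set, 1416707_a_at, was too dim to be tested and stood at 0.10.

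A wider, untested description counts the genes whose arrays did not overlap. Every A-CREB array was above every wild-type array for 49 genes (0.371% of those tested) and below for 69 (0.522%). All 6 matched differences were above 0 for 529 genes (4.00%) and below 0 for 699 (5.29%). Named after their values were seen, the 49 included the macrophage perforin gene Mpeg1 at 0.73, the immune checkpoint ligand Cd274 at 0.78, the complement receptor C3ar1 at 0.63, the microglial calcium-binding gene Aif1 at 0.64 and the leukocyte phosphatase Ptprc at 0.63. The 69 included the rho exchange factor Ngef at -0.50, the neurotrophin receptor Ntrk3 at -0.39, the TGF-beta signal transducer Smad3 at -0.39 and the cholesterol synthesis enzyme Mvd at -0.45. None of these 9 passed (adjusted p from 0.0914 for Mpeg1 to 0.232 for Mvd).

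Genes of microglia, the resident macrophages of the brain, lay above 0 together, although few passed the test. Of 29 microglia markers tested, 1 rose (Ly86), against 0.0227% of all genes, and all 29 had differences above 0 with a median of 0.40, against 46.2% and -0.0141 over all genes. All 6 matched differences were above 0 for 13 of the 29, against 4.00% of all genes, and 5 had A-CREB arrays all above the wild-type arrays (Aif1, Cd68, Ly86, Olfml3 and Ptprc), against 0.371% of all genes. Summed signals of the list were 26350 and 25490 on wild-type saline arrays and 24080 and 27480 on wild-type kainate arrays. On A-CREB arrays they ran from 27950 through a median of 34680 to 40000, without overlap. The lowest A-CREB sum was that of saline replicate 1 and the next was 32320.

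Among single microglia markers, Ctss, the lysosomal protease cathepsin S, had wild-type signals of 3301, 4122, 3459 and 5645 and A-CREB signals of 4179 to 7334 (median 5957), which overlap. Its difference of 0.50 (SE 0.10, adjusted p = 0.0902) did not pass. Trem2, a lipid-sensing receptor of microglia, stood at 1.33 (SE 0.29, adjusted p = 0.128), with wild-type signals of 251, 26.3, 167 and 129 against 243 to 517. The homeostatic microglia markers Tmem119, P2ry13 and Cx3cr1 stood at 0.02, 0.08 and 0.16 and the purinergic receptor P2ry12 at 0.43, values picked after they were seen. They do not stand for all such markers. Olfml3 was at 0.52 with arrays that did not overlap, and the matched differences of Gpr34 ran from 0.09 to 0.97. The median of the list was 0.25 after saline, 0.49 at 14 mg/kg and 0.47 at 18 mg/kg, and 24, 29 and 28 of the members were above 0. In whole tissue, more cells of a type and more RNA per cell cannot be told apart, and likewise fewer cells and less RNA.

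Genes of MHC class I presentation and of the interferon response showed a like pattern. Of 29 tested 1 rose (Oasl2), against 0.0227% of all genes, and again all 29 lay above 0, against 46.2%, with a median of 0.46. All 6 matched differences were above 0 for 12, against 4.00% of all genes. The A-CREB arrays of Oasl2, B2m and Iigp1 were all above the wild-type arrays, as for 0.371% of all genes. B2m, the light chain of MHC class I, had wild-type signals of 5225, 4102, 4194 and 5264, and its A-CREB signals were 5849 at the lowest, 6732 at the median and 7417 at the highest. Its difference of 0.51 (SE 0.10, adjusted p = 0.0846) did not pass. Iigp1 had wild-type signals of 508, 521, 245 and 454 against 602 to 1057 and stood at 0.84 (SE 0.16, adjusted p = 0.0902). Beside these, Ifit2 stood at 0.85, Usp18 at 0.79, Ifit3 at 0.64 and the class I heavy chain gene H2-D1 at 0.49. The other tested probe sets of H2-D1 stood at 0.52, 0.40 and 0.16, and 8 of its 9 probe sets, tested or not, lay above 0. Summed signals were 16760 to 20780 on wild-type and 21210 to 29480 on A-CREB arrays. By mean log2 level, however, A-CREB saline replicate 1, at 8.831, lay among the wild-type arrays at 8.465 to 8.907, and its matched difference was 0.00382.

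Phagocytic and activated microglia genes had a median of 0.27, with 24 of 28 above 0 and none past the threshold. Cst7, a lysosomal cystatin of activated microglia, had wild-type signals of 79.5, 16.2, 52.7 and 17.4 and A-CREB signals of 81.6 to 217. Its arrays did not overlap and its difference was 1.55 (SE 0.30, adjusted p = 0.0902), a size that depends on the pseudocount. Cd52, a leukocyte surface peptide, stood at 0.92 (SE 0.19, adjusted p = 0.106), and the abundant lysosomal genes Ctsd and Ctsb at -0.03 and 0.02. Complement and cytokine signalling genes had a median of 0.18, with 18 of 22 above 0, the complement receptor C3ar1 at 0.63 and complement C1qb at 0.47. Without wild-type kainate replicate 2 the medians of these 2 lists were 0.14 and 0.09.

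Reactive astrocyte genes, which astrocytes raise after injury or seizures, had a median of 0.14, with 20 of 26 above 0 and none past the threshold. Their summed signals were 14230, 14550, 15060 and 16130 on wild-type and 16860 to 19470 on A-CREB arrays, without overlap. By mean log2 level, however, A-CREB saline replicate 1, at 8.321, lay among the wild-type arrays at 8.273 to 8.593. Gfap, the intermediate filament of astrocytes, had wild-type signals of 3742, 2446, 2662 and 2615 and A-CREB signals of 3241 to 7148 (median 3903). Its difference was 0.62 (SE 0.12, adjusted p = 0.0902), and it passed with the mean of its probe sets. Serpina3n, a protease inhibitor of reactive astrocytes, stood at 0.41 (SE 0.12) with arrays that did not overlap. The median of the list was 0.08 without A-CREB saline replicate 2, and 0.22 when A-CREB saline replicate 1 or wild-type kainate replicate 1 was left out. Resting astrocyte genes had a median of -0.005, with 13 of 27 above 0, and its sign changed in 14 of 25 alternative settings.

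Blood cell markers, which could enter with immune RNA, had summed signals of 540 to 1273 on wild-type and 888 to 2003 on A-CREB arrays, with 4 of 5 members above 0 and a median of 0.25, which was -0.03 on the kainate arrays alone and, with 1 array left out, between -0.01 (wild-type saline replicate 1) and 0.47 (wild-type kainate replicate 1). The myeloid granule gene S100a8 had signals of 44.6 to 173 on wild-type and 67.0 to 198 on A-CREB arrays. The part of blood in the immune differences was not tested. The signs of the microglia and MHC class I medians were positive in all of the 25 alternative settings run for each list, quantile and cyclic loess normalization included, with ranges of 0.31 to 0.49 and 0.33 to 0.53. These settings refit the same arrays. A constant sign does not set the immune lists apart, since the striatum and choroid plexus medians were negative in all 25 (-0.74 to -0.12 and -0.52 to -0.17).

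**Figure D3:**
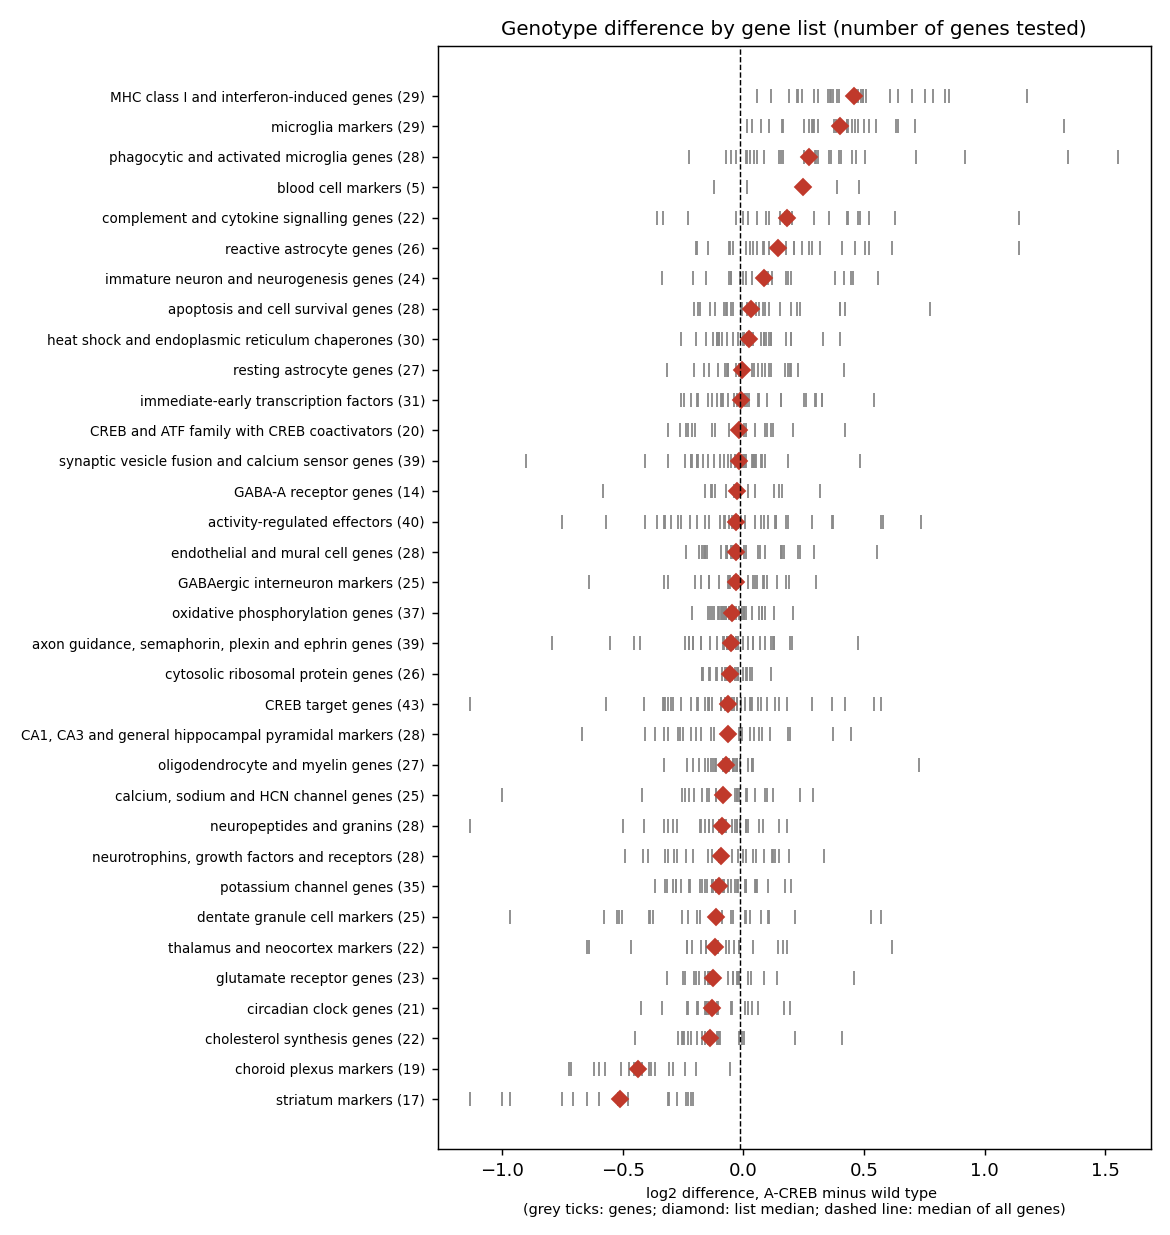
Log2 difference between A-CREB and wild type for the tested members (grey ticks) and the median (red diamond) of each gene list with at least 5 members, other than the genes picked from earlier results of these arrays, ordered by the median, with a dashed line at the median of all genes (-0.0141). MHC class I and interferon-induced genes and microglia markers lie highest, at 0.46 and 0.40, and striatum and choroid plexus markers lowest, at -0.51 and -0.44.

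Promoters were read for 2 motifs, since the interferon and CREB lists have known ones. The interferon element was searched as GAAA, any 2 bases and GAAA on both strands, a search added after values were seen, and the cAMP response element as TGACGTCA or as its part TGACG on both strands. Promoters here span 250 bases before to 50 after a start listed in RefSeq (GRCm38.p6), with 1 match or more counted, and 10657 of the 13219 genes had one. The interferon element was found in 11 of 24 promoters of the MHC class I and interferon list (45.8%), in 6 of the 41 promoters of genes whose A-CREB arrays were all higher (14.6%), in 0 of 59 for those all lower, and in 3.59% of all. None of the 3 genes that rose had it. The sequences below show the element, in capitals, in B2m, Ifit3 and Irgm1, 3 members of the interferon list on which all 6 matched differences were above 0. Their differences were 0.51, 0.64 and 0.50, none past the threshold, and the promoters lie at chr2:122147437-122147736 (plus strand), chr19:34583279-34583578 (plus) and chr11:48871371-48871670 (minus).
B2m: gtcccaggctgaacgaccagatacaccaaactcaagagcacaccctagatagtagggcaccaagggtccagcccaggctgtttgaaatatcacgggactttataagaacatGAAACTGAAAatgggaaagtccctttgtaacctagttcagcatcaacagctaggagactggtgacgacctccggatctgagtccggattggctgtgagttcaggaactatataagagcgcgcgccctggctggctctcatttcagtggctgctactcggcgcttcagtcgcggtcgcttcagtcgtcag
Ifit3: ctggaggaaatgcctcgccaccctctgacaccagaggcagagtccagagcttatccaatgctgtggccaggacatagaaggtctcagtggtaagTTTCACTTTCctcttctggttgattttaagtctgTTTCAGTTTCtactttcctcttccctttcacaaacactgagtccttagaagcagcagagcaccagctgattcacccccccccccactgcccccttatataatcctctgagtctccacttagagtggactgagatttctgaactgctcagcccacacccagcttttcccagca
Irgm1: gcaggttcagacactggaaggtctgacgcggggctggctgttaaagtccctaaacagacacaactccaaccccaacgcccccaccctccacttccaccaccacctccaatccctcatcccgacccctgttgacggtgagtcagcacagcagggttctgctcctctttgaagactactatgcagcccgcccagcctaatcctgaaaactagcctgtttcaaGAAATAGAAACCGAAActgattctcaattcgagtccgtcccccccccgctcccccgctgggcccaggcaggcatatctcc
The matches start at -139 in B2m, at -156 and -122 in Ifit3 and at -30 and -24, overlapping, in Irgm1, counted from the listed start. A match is a description of letters and not a measured site.

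The cAMP response element was read in the same promoters. The whole TGACGTCA was found in 3.40% of all promoters and in 0 of the 3 genes that rose and 0 of 2 that fell. TGACG on either strand, which also counts the whole element, was in 34.2% of all, 24.4% of the 41 promoters with all A-CREB arrays higher and 25.4% of the 59 with all lower. As a check, 9 of 34 promoters of the CREB target list had the whole element (26.5%) and 29 had TGACG (85.3%). Doc2b had no promoter listed, so none was read for it. Of the other genes past the threshold only Oasl2 had TGACG, on the reverse strand at -3, shown in capitals at chr5:114896684-114896983 (plus strand) because it is the 1 match in these genes.
Oasl2: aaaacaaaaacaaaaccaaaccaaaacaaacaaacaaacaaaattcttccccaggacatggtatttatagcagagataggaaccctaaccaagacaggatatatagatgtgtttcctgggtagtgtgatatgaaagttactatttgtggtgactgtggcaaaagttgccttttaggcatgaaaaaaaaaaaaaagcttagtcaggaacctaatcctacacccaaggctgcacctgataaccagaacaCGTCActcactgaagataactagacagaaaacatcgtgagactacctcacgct

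CREB target genes, a list of genes known to depend on CREB, had no member past the threshold among 43 tested. An unadjusted p under 0.05 was found for 7 of them, against 1207 of all 13219 genes, and 15 lay above 0, against 46.2% of all genes. Their median was -0.06, and that of all genes was -0.0141. Penk, the enkephalin precursor, had the smallest p and stood at -1.13 (SE 0.26, adjusted p = 0.137), with wild-type signals of 741, 1044, 909 and 3351 and A-CREB signals of 492 to 755. The arrays overlapped, and the brightest value was that of wild-type kainate replicate 2. Crem, the CREB-related modulator that includes the inducible repressor ICER, stood at 0.42 (SE 0.13, adjusted p = 0.345), and the secretory kinase Fam20c at -0.29 (SE 0.12). The median was -0.13 after saline, 0.14 at 14 mg/kg and -0.14 at 18 mg/kg, with 10, 32 and 14 members above 0. With 1 array left out the median ran from -0.13, with 9 members above 0, without wild-type kainate replicate 2 to -0.007, with 21 above 0, without A-CREB saline replicate 2.

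Immediate-early transcription factors had a median of -0.009, with 15 of 31 above 0, and activity-regulated effectors one of -0.03, with 16 of 40 above 0. No member of either list passed, and with 1 array left out the medians ran from -0.07 to 0.08 and from -0.13 to 0.06. Gem, a GTPase that limits calcium channel activity, had wild-type signals of 75.8 and 51.4 after saline and 477 and 342 after kainate. The A-CREB signals were 136 and 84.2 after saline and 543 to 895 after kainate, so Gem was higher than its match on all 6 arrays. Its difference was 0.74 (SE 0.17, adjusted p = 0.143). Jun stood at 0.30, Cebpd at 0.33 and Maff, a small MAF factor, at 0.54, with 5 of 6 matched differences above 0 for each.

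Creb1 itself was measured by 6 probe sets, 5 of them tested and none past the threshold. The probe set 1452529_a_at had wild-type signals of 100.2, 44.0, 130 and 61.7 and A-CREB signals of 92.9 to 237, and stood at 1.04 (adjusted p = 0.283), higher on all 6 matched arrays. The probe set 1423402_at had wild-type signals of 193, 122, 116 and 178 against 199 to 281 without overlap, and stood at 0.59 (adjusted p = 0.394). The brighter 1452901_at and 1428755_at stood at 0.12 and 0.11, and 1421582_a_at at -0.14. The place of these probes relative to the A-CREB transgene is not known here, so they do not check the genotype. Among 20 genes of the CREB and ATF family and its coactivators none passed, and 9 lay above 0 with a median of -0.02. The coactivator Crtc1 stood at -0.31 (SE 0.12) and the endoplasmic reticulum stress sensor Atf6 at -0.24 (SE 0.10). The sign of this median changed in 7 of 25 alternative settings.

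Dentate granule cells, the input neurons of the hippocampus, had 1 of 25 markers lower past the threshold (Stxbp6), against 0.0227% of all genes, with 9 above 0 and a median of -0.11. C1ql2, a C1q-like protein that granule cells secrete at their mossy fibre synapses, had wild-type signals of 547 and 666 after saline and 811 and 697 after kainate. The A-CREB signals were 521 and 428 after saline and 246 to 299 after kainate, without overlap. Over all arrays its difference was -0.97 (SE 0.18, adjusted p = 0.0810), and within 14 mg/kg C1ql2 fell by 1.48 (SE 0.19, adjusted p = 0.0165). After saline its difference was only -0.34 (SE 0.19). Its genotype by treatment term was -1.10 (SE 0.24), among the 6 with the smallest p, but did not pass (adjusted p = 0.811 by limma). Npnt, an extracellular matrix ligand, stood at -0.50 (SE 0.11, adjusted p = 0.137), whereas the granule cell transcription factor Prox1 stood at 0.22 and calbindin gene Calb1 at 0.03. The list's median was -0.20 without A-CREB saline replicate 1, -0.05 without wild-type saline replicate 2 and -0.07 without A-CREB saline replicate 2.

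Markers of pyramidal neurons had a median of -0.06, with 9 of 28 above 0 and none past the threshold. The median was 0.01 after saline, -0.21 at 14 mg/kg and -0.15 at 18 mg/kg, and over all treatments it was -0.15 without wild-type saline replicate 1 and -0.18 on the kainate arrays alone. Coch, the extracellular protein cochlin, had wild-type signals of 478, 358, 408 and 509 and A-CREB signals of 214 to 299 (median 284), without overlap. Its difference was -0.67 (SE 0.13, adjusted p = 0.0902). The CA1 marker Wfs1 stood at -0.41 (SE 0.09) and the kinase gene Camk2a at -0.26, while the neurogenic factor Neurod1 stood at 0.44 (SE 0.09, adjusted p = 0.112), higher on all 6 matched arrays. Immature neuron and neurogenesis genes had a median of 0.08, with 16 of 24 above 0. Among them doublecortin, Dcx, stood at 0.45 (SE 0.12, adjusted p = 0.239) and Eomes, a factor of intermediate progenitors, at 0.42 (SE 0.15), both higher on all 6 matched arrays. GABAergic interneuron markers had a median of -0.03, with 11 of 25 above 0, a sign that changed in 4 of 25 alternative settings, and with the neuropeptide gene Npy at -0.33 (SE 0.09).

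Markers of brain regions next to the hippocampus also differed between arrays, with none past the threshold. All 17 striatum markers were below 0, with a median of -0.51, but their summed signals were 9639 and 14990 on wild-type saline arrays and 9543 and 30170 on wild-type kainate arrays, against 8726 to 11450 on A-CREB arrays. Without wild-type kainate replicate 2, the array with the highest sum, the median was -0.12, with 5 above 0, and it was 0.01 within the arrays numbered 1 and -0.91 within those numbered 2. All 19 choroid plexus markers were below 0 as well, with a median of -0.44. Their median was -0.72 after saline, -0.002 at 14 mg/kg and -0.40 at 18 mg/kg, and it was -0.24 without wild-type saline replicate 2 and -0.29 without the A-CREB array numbered 2 at 18 mg/kg. Penk, Tac1, Rasd2 and Scn4b, which stand in other lists too, are striatum markers. The part of neighbouring tissue in the genotype differences was not tested.

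**Figure D4:**
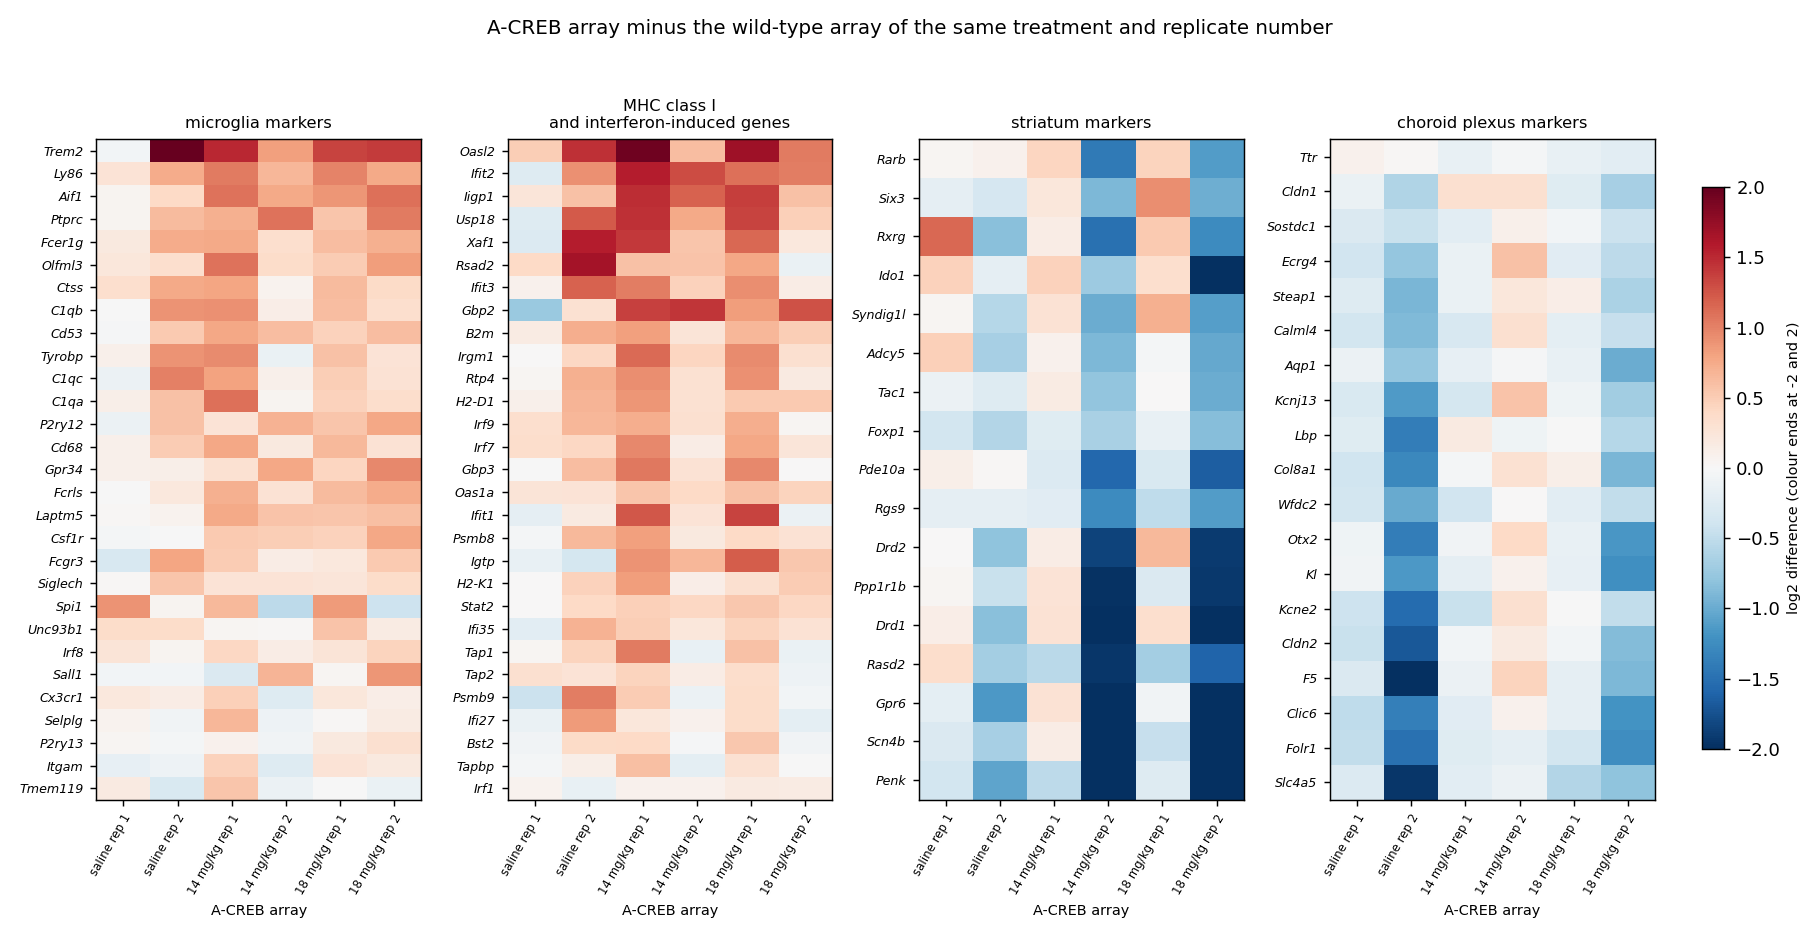
Difference of each A-CREB array from the wild-type array of the same treatment and replicate number, for the tested members of 4 lists, in log2 units with the colour ending at -2 and 2. Microglia and interferon genes are mostly red (higher in A-CREB) on 5 arrays and pale on A-CREB saline replicate 1, and striatum markers are dark blue on the kainate arrays numbered 2.

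**Figure D5:**
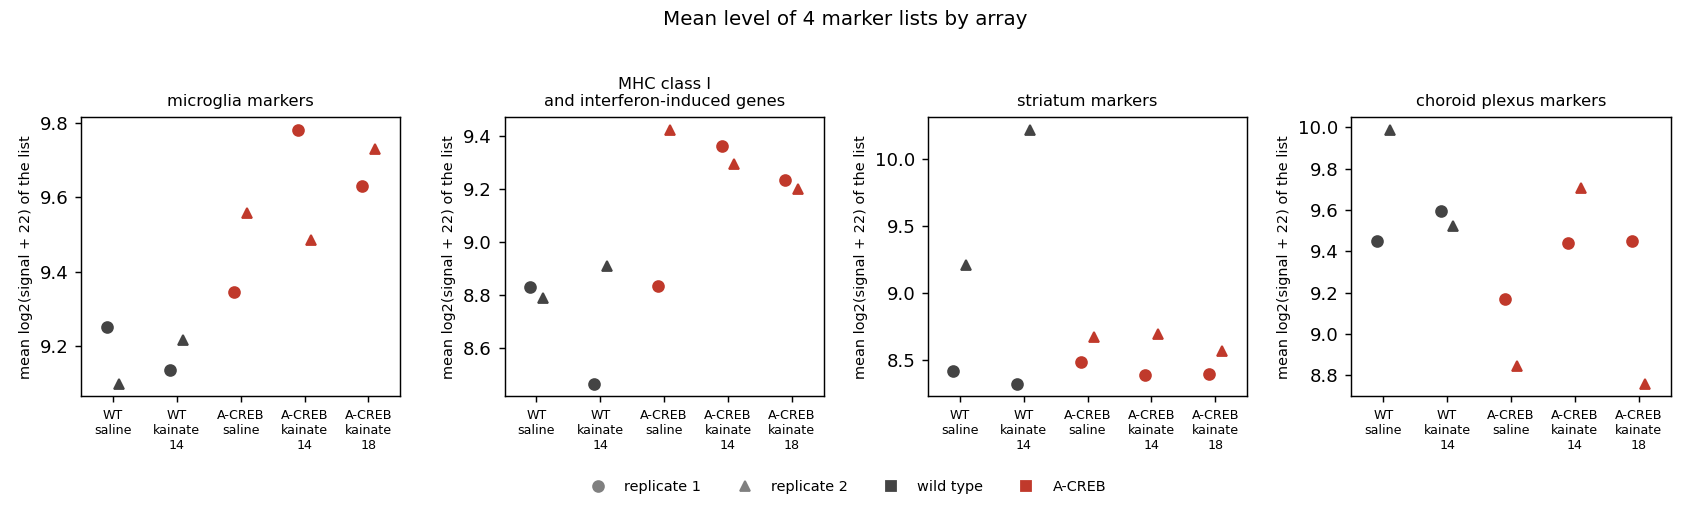
Mean log2(signal + 22) of the same 4 lists on each array, with circles for replicate 1 and triangles for replicate 2 and kainate doses in mg/kg. The microglia means are 9.10 to 9.25 on wild-type and 9.345 to 9.782 on A-CREB arrays. For striatum markers wild-type kainate replicate 2 is highest, at 10.22, and wild-type saline replicate 2 is next, at 9.21.

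The 6 genes past the threshold lay on chromosomes 5 (Oasl2), 11 (Doc2b), 12 (Ptprn2 and Stxbp6), 13 (Ly86) and 16 (Trat1) in GRCm38.p6. None of the 6 was within 2 megabases of another. Among the genes whose arrays did not overlap, 7 of the 49 higher and 18 of the 69 lower lay that close to another of their set. The share over all genes was not computed, so whether the genes cluster was not tested.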

How the data were processed

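Hippocampal RNA pools were hybridised to 10 one-colour Affymetrix Mouse430_2 arrays, 2 for each of 5 groups. The deposited values are linear probe set intensities that the authors made with MAS5 and GCOS, per the submitters' processing notes, with versions not given in the sources used here. They were used without further normalization, as log2(signal + 22). Probe sets with a mean signal in the upper 60% were kept, 27023 in all without the 64 controls. Of these, 23684 named 1 gene, and each of 13219 genes was represented by its brightest probe set (6173 genes had several), so dimmer probe sets entered only the checks by probe set.

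The additive model was fitted in limma 3.58.1 (lmFit and eBayes with an intensity trend, R 4.3.3) with 6 residual degrees of freedom, two-sided. The code was run on simulated data with noise independent between arrays, to see that added shifts were recovered. That run does not check the calls reported here. Arrays of the same number deviated together (correlations of 0.517 to 0.642 within a number, 10 of 10 arrays correlating best with their own number, 46% of the variance on the first component). The labels do not say what a number marks. The text names the genes past the threshold, up to 3 members of each of 36 gene lists by smallest p, up to 6 genes by smallest p of the genotype by treatment term, and Creb1 and sex-linked genes. Other genes were named after their values were seen. The comparison, the model and the lists were chosen with earlier results of these data known, so list counts are not independent evidence. Alternatives to the pseudocount, filter, normalization, model, probe set rule and arrays used were run.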

Additional observations from a re-analysis of the deposited data

Results flagged for a closer look

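In 8 of 84 sets of arrays, each a gene or list within one genotype, a single array stood apart from the others by Dixon's criterion. Chance meets it in about 1 in 20 sets of independent values. Here each set pooled treatments and replicate numbers, and the sets share arrays, so that rate is no yardstick for the count. Values are log2(signal + 22), averaged over the members for lists.

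Among the wild-type arrays, kainate replicate 1 stood apart for 3 of these. Its level of Oasl2, one of the 3 genes that rose, was 7.69 against 8.374 to 8.497 on the other wild-type arrays. Without that array the difference of Oasl2 was 0.98. Its mean over resting astrocyte genes was 11.108 against 11.027 to 11.032, and its mean over cytosolic ribosomal protein genes was 13.092 against 12.737 to 12.795. Wild-type kainate replicate 2 had a mean of 8.841 over phagocytic and activated microglia genes, against 8.685 to 8.704.

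Among the A-CREB arrays, saline replicate 1 stood apart for 4 lists. Its mean over phagocytic and activated microglia genes was 8.617, below the 9.107 to 9.225 of the other 5 arrays, and over complement and cytokine signalling genes it was 9.23 against 9.524 to 9.689. It was above the others for potassium channel genes, at 9.992 against 9.702 to 9.8, and for calcium, sodium and HCN channel genes, at 10.002 against 9.574 to 9.699.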

How the results depend on the processing

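The 6 genes past the threshold kept the direction of their difference in every alternative run for them. The alternatives refit the same arrays, which did not overlap between the genotypes for these genes, so most could hardly have changed a direction. The medians of 13 of 35 gene lists, most of them close to 0, changed sign in at least 1 alternative. Against 6 genes in the reported fit, all holding in every treatment, there were 10 with a pseudocount of 88, 26 on the kainate arrays alone and 0 with no replicate block, and 1 each with treatment in 3 levels, on the saline and 14 mg/kg arrays alone and with no intensity trend, that 1 being Trat1. The sets of 10 and 26 held all 6 genes. Leaving out 1 array gave 1 to 58 genes, as many holding in every treatment. Within 14 mg/kg the count of 5 became 111 when only the 4 arrays of that comparison were fitted, 0 with no replicate block and 0 to 18 with 1 array left out. With 1 array left out, the genotype by treatment term gave 0 to 3 genes and the saline comparison 0 to 1, the lone array of a group being assumed to vary like the others. Oasl2 was lost with no filter on dim probe sets (adjusted p = 0.0971 by limma). Trat1 was 1.27 with a pseudocount of 88 and 2.27 with the mean of its probe sets. Fitted by probe set, an alternative chosen after seeing the data, 5 genes passed. The genotype by treatment term was not run with treatment in 3 levels and could not be run on the kainate arrays alone. The cause of these changes was not tested. With 10 arrays and 6 residual degrees of freedom, small differences in dim genes were not detectable. The fit of only the 4 arrays at 14 mg/kg leaves fewer residual degrees of freedom, so its 111 genes are not a comparable count.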

Other observations

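Semaphorins, secreted guidance cues that steer axons and shape synapses, differed in both directions, with none of the 39 axon guidance genes past the threshold. Sema3c stood at 0.47 (SE 0.10, adjusted p = 0.0914 by limma) with all A-CREB arrays higher, while Sema3a stood at -0.55 and the semaphorin receptor Plxnd1 at -0.43 with all A-CREB arrays lower. The list's median was -0.05, with 12 members above 0, and ran from -0.10 without A-CREB saline replicate 1 to -0.002 without A-CREB saline replicate 2. Cholesterol synthesis genes had a median of -0.14, with 3 of 22 above 0 and 6 lower in all 6 matched differences, among them the enzymes Mvd at -0.45 and Fdps at -0.25. The cholesterol exporter Abca1 in the same list stood at 0.41 (adjusted p = 0.137). Without wild-type kainate replicate 2 the median was -0.24, and without wild-type saline replicate 2 it was -0.07.

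Genes of vesicle fusion had 1 of 39 lower past the threshold (Doc2b), against 0.0227% of all genes. Their median was -0.02, with 14 above 0, and ran from -0.07 without wild-type kainate replicate 1 to 0.01 without wild-type saline replicate 2. The calcium sensor Syt7 stood at -0.24 and the active zone gene Rims3 at -0.41, while Doc2a, the closest relative of Doc2b, stood at 0.09. Among GABA-A receptor genes Gabrd, the extrasynaptic delta subunit of granule cells, stood at -0.58 (adjusted p = 0.143) and was lower on all 6 matched arrays, with 6 of 14 members above 0 and a median of -0.03 that ran from -0.05 to 0.00044 with 1 array left out. Glutamate receptor genes had a median of -0.13 (5 of 23 above 0), potassium channel genes -0.10 (10 of 35), calcium, sodium and HCN channel genes -0.09 (8 of 25), neuropeptide genes -0.09 (7 of 28) and neurotrophin and growth factor genes -0.09 (11 of 28). None of these members passed. With 1 array left out these medians moved by over 1.5 times. Without wild-type kainate replicate 1 they reached -0.15 for glutamate receptors, -0.16 for potassium channels, -0.15 for calcium, sodium and HCN channels and -0.12 for neurotrophins. Without wild-type kainate replicate 2 they reached -0.05, -0.04 and 0.02 for the first 3 of these. That of neurotrophins was -0.009 without A-CREB saline replicate 2, and that of neuropeptides was -0.13 without A-CREB saline replicate 1. Clock genes had a median of -0.13 (6 of 21), with Npas2, a partner of the clock factor Bmal1, at -0.42 and all A-CREB arrays lower.

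The remaining lists lay within 0.12 of 0 by their median, with no member past the threshold. Oligodendrocyte genes had a median of -0.07 (5 of 27 above 0), endothelial and mural cell genes -0.03 (13 of 28), and thalamus and neocortex markers -0.11 (5 of 22). Oxidative phosphorylation genes were at -0.05 (12 of 37), ribosomal protein genes at -0.05 (5 of 26), apoptosis genes at 0.03 (16 of 28) and chaperones at 0.02 (17 of 30). With 1 array left out the median changed sign for endothelial genes (-0.12 to 0.03) and chaperones (-0.05 to 0.05), and ran from -0.11 to -0.02 for oligodendrocyte, -0.09 to -0.01 for oxidative phosphorylation, -0.10 to -0.01 for ribosomal protein and 0.0006 to 0.08 for apoptosis genes. A list of 6 genes picked from earlier results of these arrays had 1 gene higher (Trat1) and 1 lower (Doc2b), which is not independent evidence.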
